A study of Mus musculus with 6 samples.

Results

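Colony-stimulating factors keep myeloid cells alive and set what they become, and each acts through its own receptor. CSF1 and IL-34 signal through CSF1R, a receptor tyrosine kinase of monocytes and macrophages, and KIT and FLT3 are its relatives on mast cells, progenitors and precursors of dendritic cells. GM-CSF, IL-3 and IL-5 each bind an alpha chain of their own (CSF2RA, IL3RA, IL5RA) and share the beta chain CSF2RB, and mice carry a further beta chain, CSF2RB2, that serves IL-3 alone. In the lung, GM-CSF is required for alveolar macrophages to mature, and IL-5 drives eosinophils. The genes described here are Csf1, these receptor chains, Csf3r (the G-CSF receptor of neutrophils), Flt3 and Kit. They were picked by gene symbol, and all 10 were found among the 21965 genes of the table.

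RNA from mouse samples given as lung tissue was sequenced, with 3 libraries per group. One group is labelled Aa-flox and the other Aa-cko, and no label expands Aa. The labels name neither the deleted gene nor a Cre driver, and give no strain, age or treatment; the series title speaks of alpha tocopherol, Lkb1 and ferroptosis of group 2 innate lymphoid cells. Nothing says that the replicates of a group were separate animals, so p-values measure the spread between these libraries, which could be technical spread. LKB1 is made from Stk11, which was not lower in Aa-cko (59.4 ± 4.95 FPKM) than in Aa-flox (57.2 ± 6.28 FPKM; n = 3 per group, SD), so every direction below rests on the labels. FPKM values, as deposited, are fragments scaled by gene length and by the mapped total of the library.

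Leukocyte transcripts were abundant and several transcripts of lung structure were low. Sftpc, the surfactant protein C gene of type 2 alveolar cells, lay between 2.23 and 4.59 FPKM over the 6 libraries, Scgb1a1, the club cell secretoglobin, between 111 and 167 FPKM, and 12 T cell markers summed to between 1289 and 2994 FPKM. Depth read from the spacing of low values was 14.2 to 17.5 M fragments, so that the members other than Il5ra rested on between 106 and 11248 fragments per library. With limma, 4602 of 10849 tested genes (42.4%) passed an adjusted p of 0.05, with 2087 higher in Aa-cko (19.2%) and 2515 lower (23.2%). Under upper quartile scaling the split was 2485 higher and 1987 lower. The median log2 fold change of all tested genes was -0.05, and it fell with exon length, from 0.17 for 1618 genes under 2000 bases to -0.18 for 1849 genes of at least 8000 bases.

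Most receptor chains of this family rose, and Kit fell. Of the 9 members tested, 7 were higher in Aa-cko (Csf1, Csf1r, Csf2ra, Csf2rb, Csf2rb2, Csf3r and Il3ra), 1 was lower (Kit) and 1 did not pass (Flt3). Il5ra stayed under 1 FPKM in all libraries and was not tested. The median log2 fold change of the 9 was 0.69. In every member, Il5ra and Flt3 included, the 3 Aa-cko values lay wholly to one side of the 3 Aa-flox values, as they did for 53.3% of all tested genes (23.8% with Aa-cko above).

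**Figure D1:**
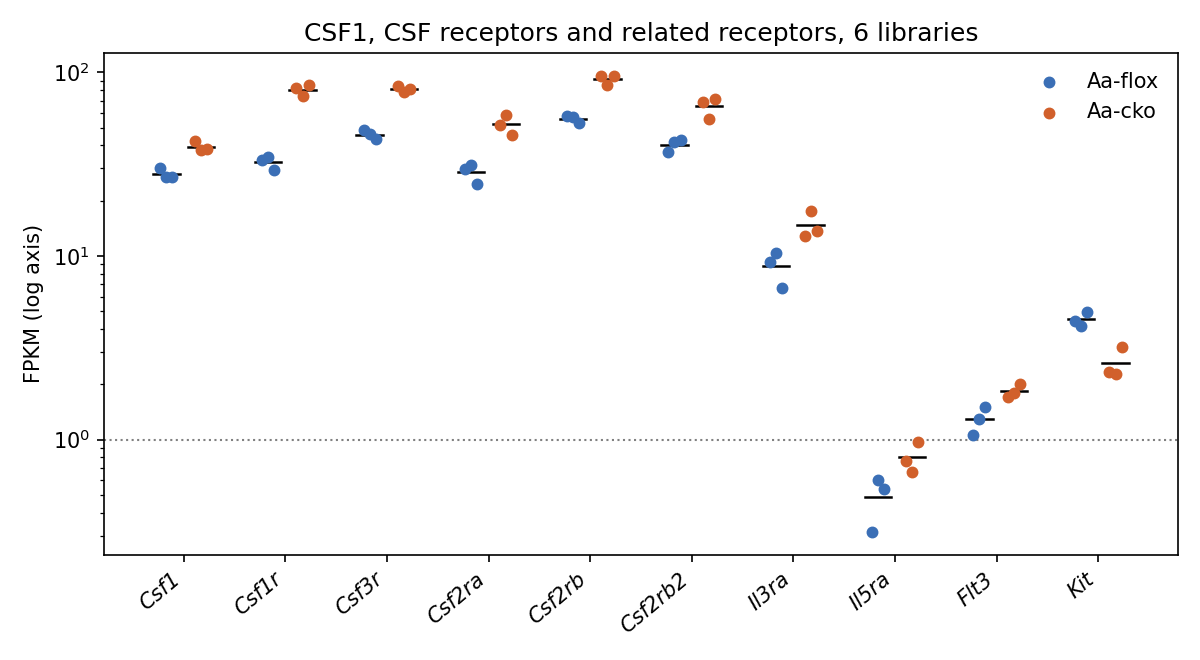
FPKM of the 10 members (log axis) in the 3 Aa-flox and 3 Aa-cko libraries, with the group mean as a bar and a dotted line at 1 FPKM, the level of the filter. Kit is the member whose Aa-cko values, 2.28 to 3.19 FPKM, lie under its Aa-flox values; Il5ra lies under the line in all 6 libraries.

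The pair of beta chains is shown first as sequence, because fragments of one can be taken for the other. Csf2rb (ENSMUSG00000071713) spans bases 78325752 to 78353847 of chromosome 15 (mm10, plus strand), and Csf2rb2 (ENSMUSG00000071714) beside it from 78282507 to 78305721 on the minus strand. Their longest coding sequences in GENCODE M21, of 2688 and 2634 bases, were 95.2% identical where aligned without gaps, with 125 bases that differ and 66 gap positions. The 60 bases in which they differ most, with the 13 differing bases in capitals, lie in coding exons at chr15:78338893-78338952 for Csf2rb and at chr15:78294379-78294438 for Csf2rb2, each written along its gene's own strand:
Csf2rb: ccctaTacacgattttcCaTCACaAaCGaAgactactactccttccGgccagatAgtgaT
Csf2rb2: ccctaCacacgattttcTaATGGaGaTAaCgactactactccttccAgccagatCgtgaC
The longest run without a difference held 242 bases, and its first 60, the same in both genes, begin at coding base 2083, at chr15:78348577-78348636 for Csf2rb:
Csf2rb and Csf2rb2: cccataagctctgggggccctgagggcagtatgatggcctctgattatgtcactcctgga
Of all stretches of 100 bases in the Csf2rb coding sequence, 11.0% occur unchanged in Csf2rb2 transcripts, and of stretches of 50 bases 26.2%. How the authors assigned such fragments is not given in the sources used here, and the separate values of both beta chains are uncertain. These shares are of coding bases only and do not measure that uncertainty. The exons hold 7277 bases in all for Csf2rb and 4740 for Csf2rb2, and their untranslated parts were not compared.

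Csf1r, the receptor by which macrophages sense CSF1 and IL-34, had the largest rise among the members. The gene (ENSMUSG00000024621) spans bases 61100598 to 61132149 of chromosome 18 (mm10, plus strand). It read 33.2, 34.7 and 29.5 FPKM in Aa-flox replicates 1 to 3 and 82.7, 74.3 and 85.0 FPKM in Aa-cko replicates 1 to 3. The groups lay far apart, and the mean rose 2.48-fold, from 32.5 ± 2.68 to 80.7 ± 5.62 FPKM. On the log2(FPKM + 1) scale the fold change was 1.29 ± 0.10 (SE; 95% interval from 1.06 to 1.52, limma adjusted p = 3.58e-05). Only 61 of the 10849 tested genes had a larger fitted rise. RNA from mixed cells does not tell more Csf1r-bearing cells from more Csf1r RNA per cell. FPKM is scaled by the mapped total, so less RNA from other cells is not told apart either. Both limits hold for every gene below. The 12 T cell markers summed to 2570 to 2994 FPKM in Aa-flox and 1289 to 1572 FPKM in Aa-cko, and their part was not tested. Hmgxb3 overlaps Csf1r on the other strand, and whether counting used strand is not given in the sources used here.

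Csf1, which encodes the ligand of that receptor, rose less. It lies on chromosome 3 from 107741048 to 107760469 (minus strand) and read 30.2, 26.9 and 26.9 FPKM in Aa-flox and 42.5, 37.7 and 38.1 FPKM in Aa-cko. The groups did not overlap, and the log2 fold change was 0.48 ± 0.10 (adjusted p = 0.00439). Receptor and ligand were close in level in Aa-flox, where the ratio of Csf1r to Csf1 FPKM was 1.16 ± 0.111, and apart in Aa-cko, where it was 2.05 ± 0.157 (n = 3 each). An exact two-sided permutation test of this ratio gave p = 0.1, the smallest that 3 against 3 libraries allow. Il34, the other ligand of CSF1R, lay between 0 and 0.208 FPKM and was not tested.

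Csf3r, the receptor of G-CSF on neutrophils and their precursors, rose with narrow spread. This gene of chromosome 4 (bases 126024550 to 126044440, plus strand) read 48.4, 45.9 and 43.1 FPKM in Aa-flox and 84.5, 78.2 and 81.4 FPKM in Aa-cko. Its mean rose 1.78-fold, with a log2 fold change of 0.82 ± 0.09 (adjusted p = 0.000191). Csf1r rose beyond it: the ratio of Csf1r to Csf3r FPKM was 0.687, 0.756 and 0.684 in Aa-flox and 0.979, 0.950 and 1.04 in Aa-cko. The ratios did not overlap between the groups (exact permutation p = 0.1, the smallest possible).

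The chains of the GM-CSF receptor rose side by side. Csf2ra, the alpha chain that gives the receptor its specificity, is a gene of chromosome 19 (bases 61223957 to 61228429, minus strand) and read 29.8, 31.1 and 24.7 FPKM in Aa-flox and 51.8, 58.9 and 45.9 FPKM in Aa-cko. Its groups lay apart, and the log2 fold change was 0.85 ± 0.13 (adjusted p = 0.000745). Csf2rb, the shared signalling chain, was the most abundant member in both groups, at 57.7, 57.0 and 53.1 FPKM in Aa-flox and 95.8, 85.2 and 95.5 FPKM in Aa-cko. It rose by log2 0.71 ± 0.10 (adjusted p = 0.000418). The ratio of beta to alpha chain was 1.97 ± 0.163 in Aa-flox and 1.79 ± 0.322 in Aa-cko, with overlapping values (exact permutation p = 0.5).

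Both chains particular to IL-3 were higher too. Csf2rb2, the beta chain specific to IL-3 in mice, read 36.9, 41.7 and 42.6 FPKM in Aa-flox and 68.6, 55.7 and 71.5 FPKM in Aa-cko (log2 fold change 0.67 ± 0.12, adjusted p = 0.00175). All 3 Aa-cko libraries were above all 3 Aa-flox libraries. Its ratio to Csf2rb was 0.725 ± 0.0822 in Aa-flox and 0.706 ± 0.0482 in Aa-cko, with overlapping values (exact permutation p = 0.9). Il3ra, the IL-3 alpha chain, is a gene of chromosome 14 (bases 14346275 to 14356011, plus strand) and was lower in level, at 9.30, 10.4 and 6.67 FPKM in Aa-flox and 12.9, 17.6 and 13.8 FPKM in Aa-cko. It rose by log2 0.69 ± 0.17 (adjusted p = 0.00976), and the antisense gene Gm48860 overlaps it.

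Il5ra, the IL-5 receptor chain of eosinophils and of some B cells, was close to the limit of these libraries. The chromosome 6 gene (bases 106710357 to 106749037, minus strand) read 0.315, 0.606 and 0.535 FPKM in Aa-flox and 0.760, 0.667 and 0.972 FPKM in Aa-cko, or about 18.2 to 56.2 fragments per library. The Aa-cko values were all above the Aa-flox values, though the nearest were close. With no filter on low values the log2 fold change was 0.28 ± 0.12 (adjusted p = 0.143). Markers of eosinophils were low too: the 6 of the list summed to between 14.3 and 34.1 FPKM, and Epx, the eosinophil peroxidase gene, read at most 0.484 FPKM. Of the 3 tested, 1 rose (Ccr3, log2 0.45) and 2 did not pass.

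Neither of the other receptor tyrosine kinases was called higher. Flt3, the receptor of early progenitors and dendritic cell precursors, lies on chromosome 5 (bases 147330741 to 147400489, minus strand) and read 1.06, 1.29 and 1.51 FPKM in Aa-flox and 1.70, 1.80 and 1.998 FPKM in Aa-cko. Although the groups did not overlap, the log2 fold change of 0.31 ± 0.13 did not pass (adjusted p = 0.0857). Under upper quartile scaling it passed (0.37, adjusted p = 0.0472), and also with the trend with exon length removed (0.43, adjusted p = 0.0187). The antisense gene Gm26597 overlaps Flt3.

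Kit, the stem cell factor receptor of progenitors and mast cells, was the member that fell. On chromosome 5 from 75574916 to 75656722 (plus strand), it read 4.41, 4.16 and 4.97 FPKM in Aa-flox and 2.35, 2.28 and 3.19 FPKM in Aa-cko. No Aa-cko library reached the lowest Aa-flox library, and the log2 fold change was -0.62 ± 0.14 (adjusted p = 0.00714). Kit has exons of 8911 bases in all, in the length class whose median fell by 0.18, and with the length trend removed it fell by 0.46 (adjusted p = 0.00996). The ratio of Flt3 to Kit FPKM went from 0.285 ± 0.0389 to 0.713 ± 0.0823, without overlap (exact permutation p = 0.1, the smallest possible).

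Mast cell and progenitor markers gave no call in the direction of Kit, but many were near the floor. Of 10 mast cell and basophil markers 6 were tested, of which Cma1 rose and 0 fell. Prss34 passed the filter through Aa-cko alone and is not counted as a rise. Tpsb2, Tpsab1, Fcer1a and Ms4a2 were under the filter. Cpa3, Mcpt4 and Mcpt8 had Aa-flox means of 1.96, 0.637 and 0.965 FPKM, levels at which a fall is hard to detect. The sum of the 10 was 132 to 161 FPKM in Aa-flox and 166 to 185 FPKM in Aa-cko, most of it Hdc, the histidine decarboxylase gene. Ms4a2, the beta chain of the IgE receptor, was listed at 0 in Aa-flox and read at most 0.076 FPKM in Aa-cko. Of 10 progenitor markers 7 were tested, with 3 higher (Ly6a, Procr and Hlf), 0 lower and 4 not past (Cd34, Mpo, Elane and Prtn3). Among immature lymphocyte markers 5 were tested, with 1 higher (Vpreb3, log2 0.97), 2 lower and 2 not past (Rag1, 0.35, and Cd1d1, 0.04). Dntt, the terminal transferase gene, fell from 92.7 ± 1.21 to 60.3 ± 2.75 FPKM and Rag2, a recombinase subunit, by log2 0.60. The part of these cells in the Kit values was not tested.

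**Figure D2:**
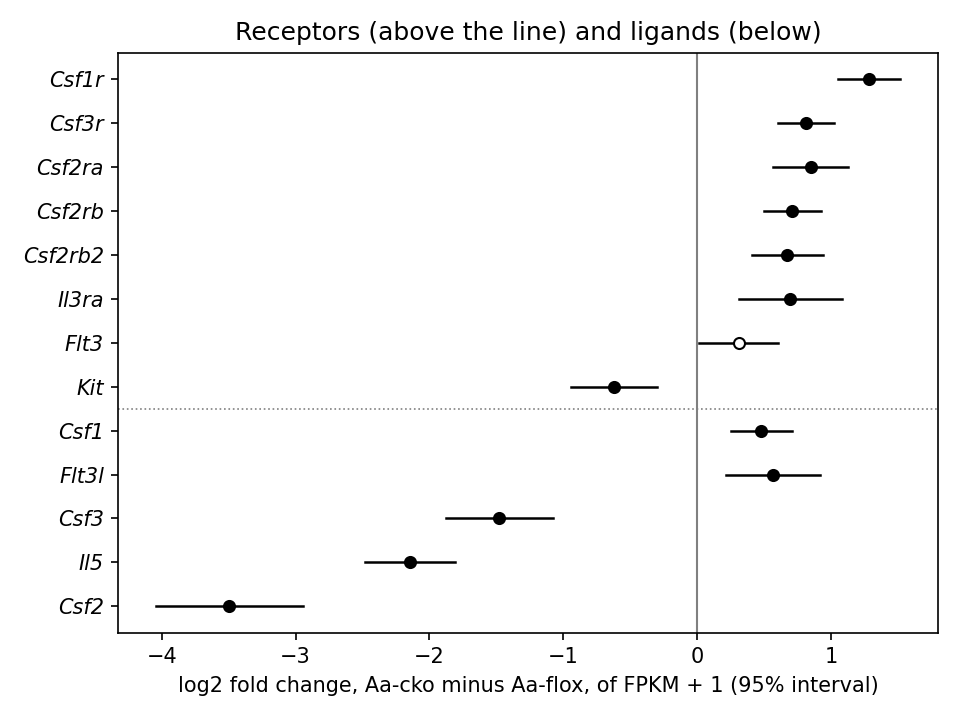
Log2 fold change of FPKM + 1, Aa-cko minus Aa-flox, with its 95% interval for the tested receptors and, under the dotted line, for ligands; filled points passed an adjusted p of 0.05. Receptors from Csf1r (1.29) to Csf2rb2 (0.67) lie right of 0, while Kit (-0.62) and the ligands Csf3, Il5 and Csf2 (-3.49) lie left of it.

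Csf2rb led the family in level in both groups. FPKM is per length, so genes can be ranked, but only roughly. Values still leaned with exon length, to a degree that differed between libraries. The separate values of Csf2rb and Csf2rb2 are also uncertain. In Aa-flox Csf2rb stood first, then Csf3r, Csf2rb2, Csf1r, Csf2ra, Csf1, Il3ra, Kit, Flt3 and Il5ra. In this order the ranges of Csf1r and Csf2ra overlapped, as did those of Csf2ra and Csf1, and all other neighbours were apart. In Aa-cko Csf1r moved above Csf2rb2, where its values overlapped those of Csf3r but not those of Csf2rb2, and the ranges of Csf2rb2 and Csf2ra overlapped. Csf2rb in Aa-flox was above 86.5% of tested genes, Il3ra above 43.5% and Flt3 above 5.20%.

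Replicates ranked differently from member to member. Aa-cko replicate 2 was the lowest of its group in 7 of the 10 members, among them Csf1r, Csf2rb and Csf2rb2, and the highest in the alpha chains Csf2ra and Il3ra. The same library was raised in short genes and lowered in long ones, with a median deviation from its group's mean of 0.15 (log2) under 2000 bases of exon and -0.19 from 8000 bases. Aa-flox replicate 3 leaned the opposite way (-0.08 and 0.12). The part of exon length in the order of the libraries was not tested. Without Aa-cko replicate 2, the 7 rises and the fall of Kit were called as before.

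By the distance between centred log2(FPKM + 1) profiles over the 6 libraries, the genes nearest to each tested member lay outside the family. That was likely beforehand, because the family makes up only 9 of the 10849 tested genes. The nearest to Csf1r were Lhfpl2 and Bag3, a co-chaperone, at root mean square differences of 0.053 and 0.057, while its nearest member, Csf3r, was at 0.243. Csf2rb and Csf3r were the closest pair of members (0.063). Nearest to Csf2rb were Chrm3 and Fam20a, to Csf3r Sdc3 and Ciapin1, to Csf2ra Trem3 and Dnase1l1, to Csf2rb2 Arsb and Lifr, and to Il3ra Sirpb1a and Card9. Csf1 was nearest to Nek6 and B3gntl1, and Flt3 to Gnal and Ebag9. Kit was nearest to Ncoa5 (0.015) and Ddx3x (0.031), which fell by log2 0.61 and 0.65.

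Of the other ligands of these receptors, Csf2, Csf3 and Il5 fell while most receptor chains rose. Csf2, which encodes GM-CSF, read 42.5, 40.8 and 29.7 FPKM in Aa-flox and 3.85, 2.52 and 1.29 FPKM in Aa-cko (log2 fold change -3.49 ± 0.25, adjusted p = 1.85e-05). Hence the ratio of Csf2ra to Csf2 FPKM went from between 0.699 and 0.831 to between 13.5 and 35.4. Csf3, the gene of G-CSF, read 121, 104 and 91.4 FPKM in Aa-flox and 34.5, 49.6 and 29.6 FPKM in Aa-cko (-1.48 ± 0.18, adjusted p = 0.000262). Il5 fell by 2.15 ± 0.15 (adjusted p = 1.85e-05). Each of these 3 was lower in every Aa-cko library than in any Aa-flox library.

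Il3, the ligand of Il3ra with either beta chain, passed the filter through Aa-flox alone. It read 6.85, 3.76 and 2.08 FPKM there and 0.111, 0.094 and 0.097 FPKM in Aa-cko, which is about 1 fragment in each Aa-cko library. No p-value is given, because Il3 entered the test only through its Aa-flox values. A fold against so few fragments depends on the pseudocount and is not given. Flt3l, the FLT3 ligand, was the ligand that rose, from 6.97 ± 1.58 to 10.6 ± 0.318 FPKM (log2 0.57 ± 0.16, adjusted p = 0.0165). Kitl, the KIT ligand, read 0.517 ± 0.0953 and 0.411 ± 0.106 FPKM with overlapping groups, and like Il34 it was under the filter. Of these 7 other ligands 4 thus passed the filter without resting on 1 group alone, and of them 3 were lower and 1 was higher.

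**Figure D3:**
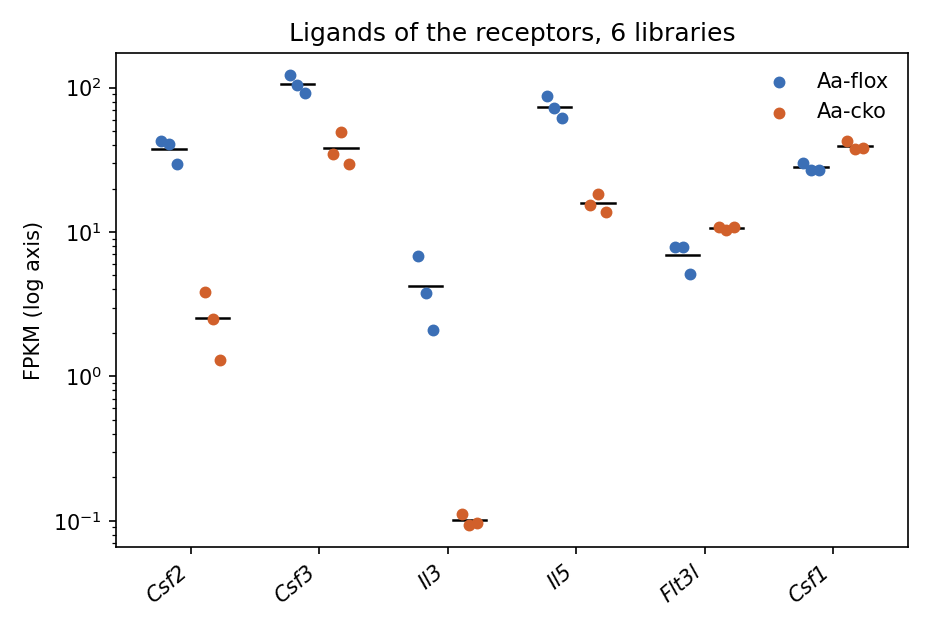
FPKM (log axis) of the ligand genes that were tested, in each library, with group means as bars. The Aa-cko values of Csf2, Csf3, Il3 and Il5 lie under all their Aa-flox values, those of Flt3l and Csf1 above.

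Most markers of monocytes, macrophages and neutrophils rose in the same libraries. Of 14 monocyte and macrophage markers 13 were tested and 13 were higher (median log2 1.01), and the list's sum went from 2009 to 2408 FPKM in Aa-flox to between 3892 and 4886 FPKM in Aa-cko. Cd14 and Lyz2 were the most abundant of them, and Cx3cr1, a marker of patrolling monocytes, stayed under 1 FPKM. All 10 alveolar macrophage markers were higher as well (median 1.06, sums of 2563 to 2991 and 6122 to 8295 FPKM), led in level by Chil3 and Ear2. Of 11 neutrophil markers 8 rose and 3 did not pass (S100a8, Retnlg and Stfa2l1), with a median of 0.50 and sums of 3019 to 3835 and 3833 to 5576 FPKM. Of 8 dendritic cell markers tested, Ccr7, H2-Aa and Batf3 were higher and 3 did not pass (Xcr1, Zbtb46 and Fscn1). Cd209a and Siglech reached the filter through Aa-cko alone and are not counted as rises. The dendritic cell list summed to 601 to 673 and 1190 to 1399 FPKM, most of it H2-Aa, with Ccr7 next. Progenitor markers summed to 127 to 144 and 210 to 236 FPKM. Most of that sum was Ly6a (means of 91.9 and 156 FPKM) and Procr (36.6 and 54.2 FPKM), so it says little of the other markers. Those of immature lymphocytes, led by Dntt and Cd1d1 and with Igll1 at 0 throughout, summed to 107 to 112 and 76.9 to 83.1 FPKM. B cell markers rose in 8 of 8 cases (sums of 583 to 648 and 884 to 945 FPKM), T cell markers fell in 10 of 12 with 2 not past, and markers of group 2 innate lymphoid cells had 3 higher, 3 lower and 4 not past of 10 (248 to 257 and 219 to 254 FPKM). The structural lung markers had 2 higher, 1 lower and 8 not past of 11 tested, with sums of 175 to 206 and 187 to 223 FPKM.

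Csf3r was higher in Aa-cko relative to neutrophil markers. Csf2ra, Csf2rb and Csf2rb2 were lower there relative to monocyte and macrophage markers, and Il3ra was not set against markers. Except for Csf3r, each receptor's log2(FPKM + 1) was taken minus the mean of the 13 monocyte and macrophage markers in the same library. For Csf1r this difference was -0.50, -0.53 and -0.53 in Aa-flox and -0.16, -0.54 and -0.12 in Aa-cko, a mean shift of 0.25 with overlapping groups (exact permutation p = 0.4). Csf2ra, Csf2rb and Csf2rb2 were lower relative to the markers in every Aa-cko library than in any Aa-flox library, by 0.19, 0.33 and 0.37 on average (p = 0.1 each by the exact test, the smallest possible). Csf3r was set against 11 neutrophil markers instead. Its difference rose by 0.34, from -0.66 ± 0.04 to -0.32 ± 0.15, without overlap (exact permutation p = 0.1). The lists rose unequally, by a median of 0.50 for the neutrophil markers and 1.01 for the monocyte and macrophage markers. Without markers, the log2 fold changes were 0.82 for Csf3r, 0.85 for Csf2ra, 0.71 for Csf2rb and 0.67 for Csf2rb2. Csf3r was not set against monocyte and macrophage markers, nor the other receptors against neutrophil markers. Aa-cko replicate 2 decided part of the size of the shifts relative to markers: without it the shift was 0.38 for Csf1r, -0.20 for Csf2rb and -0.18 for Csf2rb2. The marker list decided which groups lay apart: against 10 alveolar macrophage markers the Csf1r shift was 0.27 with p = 0.1 by the exact test, and that of Csf2rb2 had an exact permutation p = 0.2. Csf1r, Csf2ra, Csf2rb and Csf2rb2 kept the sign of their shift with that list.

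**Figure D4:**
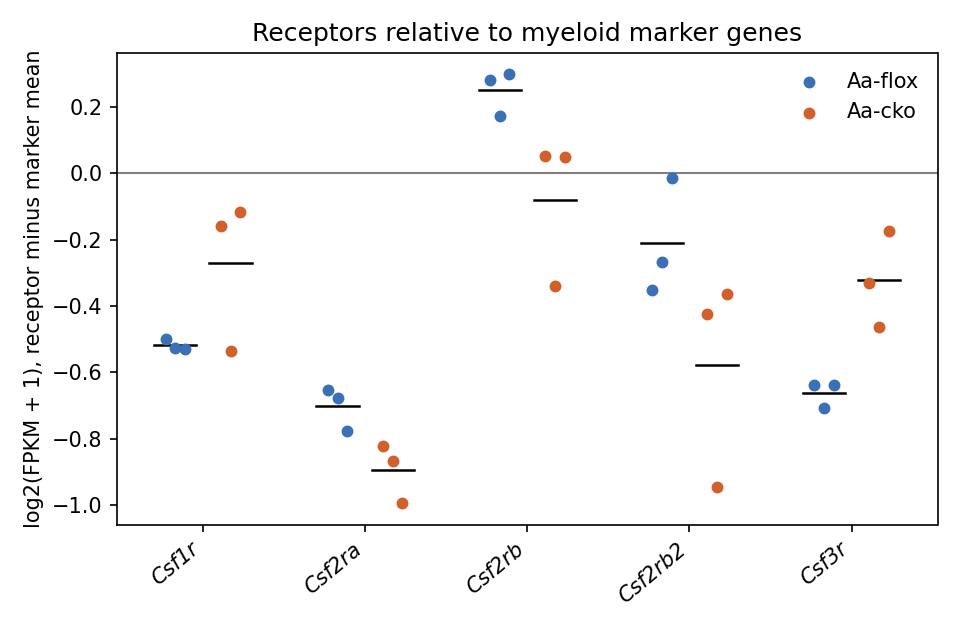
Log2(FPKM + 1) of each receptor minus the mean of marker genes in the same library (neutrophil markers for Csf3r, monocyte and macrophage markers for the others), with group means as bars. Csf2ra, Csf2rb and Csf2rb2 lie lower in Aa-cko and Csf3r higher; for Csf1r the lowest Aa-cko value, -0.54, lies among the Aa-flox values.

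Signal transducers and brakes of these receptors were called in both directions. All 26 were tested, with 8 higher, 7 lower and 11 not past and a median of -0.22, where 19.2% of all genes were higher and 23.2% lower. Among those that rose, Fgr, a SRC-family kinase of myeloid cells, went up by log2 0.69 ± 0.10 and Socs3, the feedback inhibitor of the G-CSF receptor, by 0.73 ± 0.10, from 90.9 ± 6.97 to 152 ± 6.06 FPKM. Lyn and Fes, tyrosine kinases that act on the beta chain or CSF receptors, were higher too, by 0.69 and 0.47. Ptpn6, the phosphatase SHP-1, fell by 0.81 ± 0.11 and Sh2b3, the adaptor LNK that restrains KIT and JAK2, by 0.89 ± 0.12. Jak2, the kinase bound to the beta chain, fell as well (-0.49), as did the STAT genes Stat5a (-0.68) and Stat5b (-0.76), while Stat3 did not pass (0.07, adjusted p = 0.697). T cells and other lymphocytes express several of these genes, and the T cell markers fell in the same libraries; their part was not tested.

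Transcription factors known to act on the receptor genes moved both ways. Of 14, 11 were tested: 5 rose (Cebpa, Spi1, Ets2, Mitf and Cebpb), 4 fell (Gfi1, Myb, Egr2 and Irf8) and 2 did not pass (Runx1 and Cebpe). Cebpa, needed for granulocyte and macrophage precursors, had the largest rise, from 8.50 ± 1.32 to 28.1 ± 2.48 FPKM (log2 1.62 ± 0.13). Spi1, whose product PU.1 binds the Csf1r, Csf2ra and Csf3r genes, rose from 61.3 ± 7.89 to 108 ± 11.8 FPKM (0.81 ± 0.13, adjusted p = 0.000873). Gfi1, a repressor that limits Csf1 and Csf1r in granulocyte precursors, fell by 1.82 ± 0.16, and Myb, a progenitor factor also made by lymphocytes, by 1.73 ± 0.19. Gata2, a regulator of Kit in mast cells, read 1.01 ± 0.347 and 0.846 ± 0.089 FPKM and was under the filter.

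Among related receptors outside the family, Il7r had the smallest p. Of 13, 9 were tested, with 6 higher (Il7r, Il4ra, Crlf2, Lifr, Il6ra and Flt1), 1 lower (Il2rg, the common gamma chain, -0.35) and 2 not past (Il6st and Kdr). Il7r, the IL-7 receptor of lymphocytes, went from 22.6 ± 2.31 to 45.7 ± 3.61 FPKM. In the group of genes for shedding and turnover of CSF1 and CSF1R, 1 of 6 tested genes rose, Tyrobp, the adaptor DAP12 of myeloid receptors (262 ± 26.1 to 498 ± 113 FPKM). Adam17, the protease that sheds CSF1R, did not pass (log2 -0.28, adjusted p = 0.165), nor did Hcst (0.39) or Cbl (-0.51), the ubiquitin ligase that turns over CSF1R and KIT.

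The promoter windows of the members, from 250 bases before to 50 after the RefSeq start on GRCm38.p6, were searched on both strands for motifs of myeloid and lymphoid factors. A window was matched for 8 of the 10, all but Csf2rb and Csf1r. The motif GAGGAAGT, bound by the factor PU.1, was held by 3.28% of all 27025 windows of this length. For RUNX factors the letters TGTGGT were sought, with a share of 16.9% of all windows. For C/EBP factors the letters TTGCNNAA were sought, which 10.8% of windows held. The STAT form TTCNNNGAA was present in 8.47% of windows. For GATA factors the search was for AGATAA, with a share of 11.4%. Among the 8 members the RUNX motif was found in 0 and each other motif in 1, those of PU.1 and STAT in Csf2rb2, that of C/EBP in Il3ra and that of GATA in Il5ra. The 60 bases before the Csf2rb2 start, at chr15:78305722-78305781 on the minus strand, are shown because a STAT motif (capitals) stands in a gene of the IL-3 receptor:
Csf2rb2: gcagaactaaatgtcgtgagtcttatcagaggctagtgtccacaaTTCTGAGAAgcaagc
A match is a description of letters and not a measured site, and no match says only that these letters are not in the window.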

How the data were processed

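The source was 1 table of FPKM values, which the authors computed for 21965 genes in 6 libraries and deposited with 3 decimals. Per the labels' protocols RNA came from a column kit and libraries from a SMARTer mRNA-Seq kit, and reads were placed on mm10, according to the submitters' processing notes. Aligner and quantifier: not given in the sources used here. Groups and columns follow the labels' titles. Depth was estimated from the spacing of low FPKM values with GENCODE M21 exon lengths; 43.0 to 48.4% of held-out values were whole within 0.1 fragment, against 20.0% by chance, so no count test was run.

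The test was limma 3.58.1 (R 4.3.3) on log2(FPKM + 1) for genes reaching 1 FPKM in 3 or more libraries, with trended, robustly moderated variances and no term but group, adjusted by Benjamini and Hochberg over all 10849 genes; the steps were tested on simulated data. Fold changes on this scale understate the change of low genes. Other tests are exact two-sided permutation tests. Python 3.11.15 with pandas 2.3.3 was used for the rest. The members and the 17 gene lists were chosen with earlier results of these data known. Named are all members, all other ligands, up to 4 genes per pathway list by smallest p, list members that make up a count of 5 or fewer or complete a stated count, and the 2 nearest profiles per member; Lyn, Fes, Jak2, Stat3, Stat5a, Stat5b, Epx, Ms4a2, Dntt, Rag2, Gata2 and Hdc were chosen after their values were seen.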

Additional observations from a re-analysis of the deposited data

How the results depend on the processing

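The calls of 8 members kept their direction and stayed past the threshold under another pseudocount, 2 other filters, 3 scalings, no variance trend, a replicate block, a removed trend with exon length (chosen after seeing the data) and leaving out each library. Flt3 was the exception: it passed under upper quartile scaling (log2 0.37) and with the length trend removed (0.43). Over these settings Csf1r ranged from 1.21 to 1.39, Csf1 from 0.39 to 0.57, Il3ra from 0.63 to 0.78 and Kit from -0.78 to -0.46; leaving out a library gave 1.22 to 1.34, 0.43 to 0.53, 0.53 to 0.81 and -0.73 to -0.56. The number of genes called lay between 4107 and 5509, and between 3238 and 4756 when a library was left out. Whether replicate numbers pair the libraries was not settled. Deviations from the group means correlated at -0.02, 0.19 and 0.52 for the same number, and 1 of the 3 pairs was under 0.1. For different numbers the correlations ran from -0.5 to 0.365. With the replicate block 5509 genes were called, against 4602 without it, and 7 members were higher and 1 lower in both fits. Depth limits Il5ra and, in Aa-cko, Il3, which rested on about 1 fragment per library. The shifts of the 5 receptors relative to markers kept their sign under every setting tried for them.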
